A study of Homo sapiens with 2 samples.

Results

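Axon guidance genes encode secreted or membrane-bound cues and the receptors that read them: semaphorins, Slits, netrins and ephrins on one side, and plexins, neuropilins, Robos and Eph receptors on the other. Their members were taken by gene symbol, and a probe was named through the RefSeq accession it carries. Of 64 such symbols in RefSeq, all but NTN5, or 63, had a probe matched, among 21743 genes named on the array. The 63 genes were measured with 89 probes on 125 spots, and no spot of these probes carried an outlier flag.

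Semaphorins bind plexins, and the secreted class 3 members usually need a neuropilin as co-receptor. Slits bind Robo receptors, and netrins attract or repel through DCC, neogenin and the UNC5 receptors. Ephrins and Eph receptors both sit on cell surfaces and signal in both directions when cells touch, the A ephrins through a lipid anchor and the B ephrins through a membrane-spanning chain. Outside the nervous system these cues are known for steering endothelial cells, branching epithelium and migrating fibroblasts.

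The cells were MRC-5, fibroblasts from human fetal lung, the single cell source used. They were transfected with control siRNA or periostin siRNA (ON-TARGET plus siRNA against POSTN, which encodes the matricellular protein periostin). The dose of 10 nM and the time of 48 h are those stated for periostin siRNA, and the dose and time of control siRNA on the array are not given in the sources used here. Each condition had 1 single-colour Agilent array, so there was no replicate culture, no test between the conditions and no p-value. Values are background-subtracted spot intensities brought to a common 75th percentile of 377, in arbitrary units. The ± after a log2 ratio is the SD over spots for probes printed 10 times and the propagated error of the scanner software for probes printed once. These are unlike measures, and neither covers the spread between cultures. Signals of different genes come from different probes, so they do not rank the amounts of RNA. Where they are ranked or summed below, they describe signal strength on the array only.

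The signal of POSTN itself was 2638 with control siRNA and 280 after its knockdown, which is -3.24 ± 0.20 as a log2 ratio. Of 58717 spots, the scanner software called 58.0% well above background with control siRNA and 58.9% with periostin siRNA. All 9 fibroblast markers examined, such as COL1A1 and VIM, were well above background on both arrays, with log2 ratios from -0.54 to 0.83.

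Of the 63 guidance genes, 44 passed the detection flag (well above background) in both conditions, 4 in a single condition and 15 in none. The 15 genes with no ratio were the semaphorins SEMA3E, SEMA3G and SEMA5B, the plexin PLXNA2, SLIT1 and SLIT2, the A ephrins EFNA2 and EFNA3, the EphA receptors EPHA1, EPHA5, EPHA6, EPHA7 and EPHA8, and the EphB receptors EPHB1 and EPHB6. EPHA3 and EPHA10 were well above background with control siRNA alone, and NTN3 and SEMA6D with periostin siRNA alone. For these 4 genes the fold is a lower bound, in which the undetected signal was replaced by the weakest detected signal of its array (7.55 with control siRNA and 7.77 with periostin siRNA) unless it was itself stronger. Every such bound in the text takes the detected signal as read, without its spot error, and applies to its own probe alone.

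Of these genes, 4 differed by more than 3-fold, the threshold used in the study. EFNB2, EFNB3 and ROBO4 were lower with periostin siRNA and NTN1 was higher. In RNA of a whole culture, fewer cells that express a gene and less of its RNA per cell cannot be told apart. That is 3 lower and 1 higher of 48 genes with a ratio, against 2.75% lower and 3.37% higher among the 16052 genes with a ratio, so 8.33% of the guidance genes and 6.12% of all genes were past 3-fold in either direction. At 2-fold, 12 of the 48 guidance genes differed, 5 of them lower and 7 higher, where 6.42% of all genes were lower, 7.97% higher and 14.4% either. This balance depended on the scaling, with 8 lower and 3 higher after scaling on the median of each array, 8 lower and 7 higher after loess, and 6 lower and 6 higher after quantile normalization. The log2 ratio was above 0 for 32 of the 48 genes, or 66.7%, and for 54.5% of all genes. The median was 0.20 over the guidance genes and 0.06 over all genes, and scaling on the median of each array moved these to 0.08 and -0.07, with 28 guidance genes above 0.

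**Figure D1:**
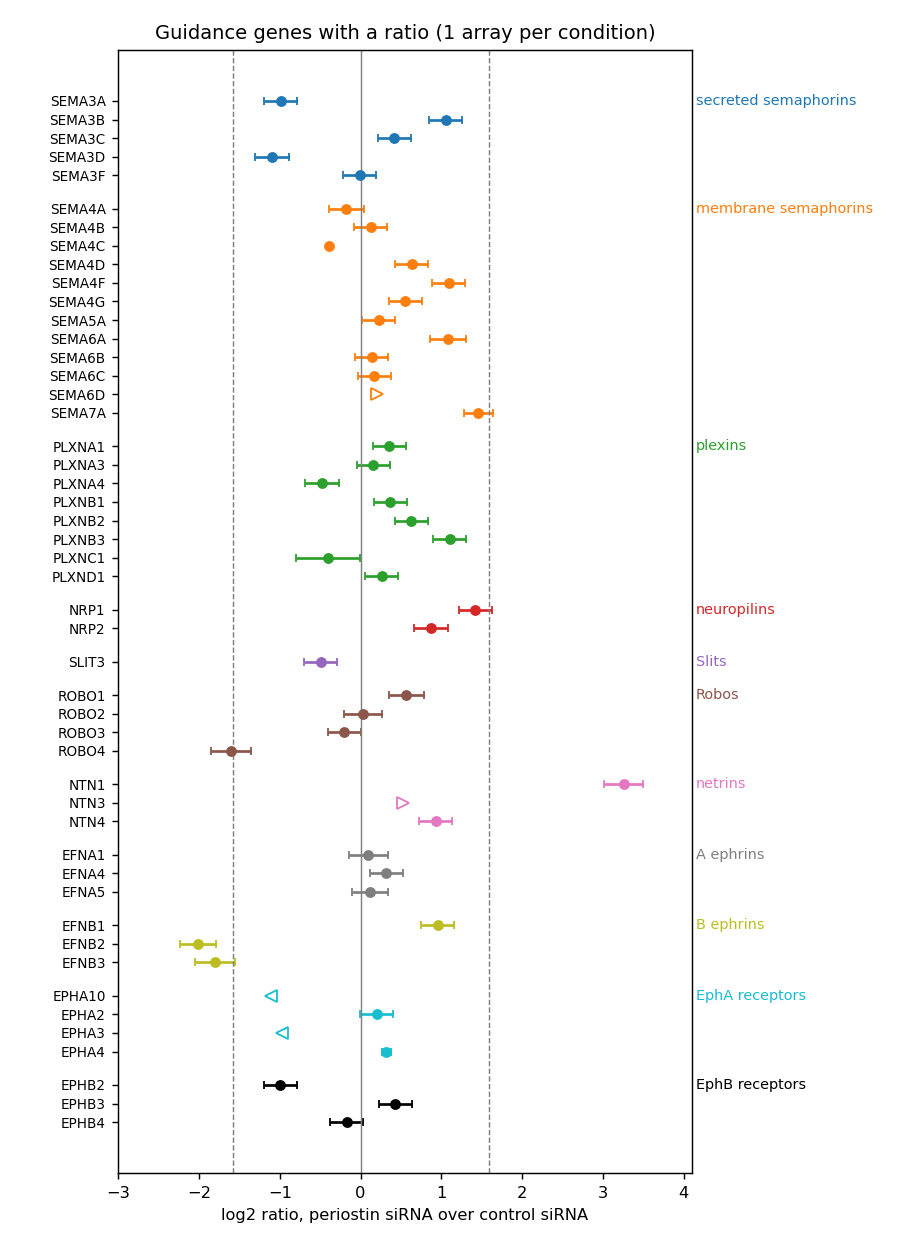
Log2 ratio, periostin siRNA over control siRNA, for the 48 guidance genes with a ratio, grouped by role, from 1 array per condition. Filled points carry the spot error (SD over 10 spots, or the propagated error of 1 spot), open triangles are lower bounds on the size of the difference, and the dashed lines mark 3-fold. NTN1 lies at 3.26, while EFNB2 at -2.01, EFNB3 at -1.80 and ROBO4 at -1.61 lie beyond the other line.

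All 4 genes past 3-fold had a low signal. When the 16052 genes were ranked by mean signal and divided into bins of 4013, the dimmest bin held 16 guidance genes and with them all 4 past 3-fold, and 480 of its 4013 genes were past 3-fold. The brighter bins held 14, 10 and 8 guidance genes, 0 of them past 3-fold, and 7.72%, 2.97% and 1.82% of all genes there were past it. The normexp background correction, which includes an offset of 50 on each array and so draws the ratios of dim probes towards 0, gave -0.92 for EFNB2, -0.67 for EFNB3, -0.62 for ROBO4 and 1.55 for NTN1. With it 0 of the 48 guidance genes and 2.08% of all genes were past 3-fold, and 3 guidance genes, NTN1, NRP1 and SEMA3B, were past 2-fold. Without scaling between the arrays ROBO4 gave -1.56 and was also within 3-fold.

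**Figure D2:**
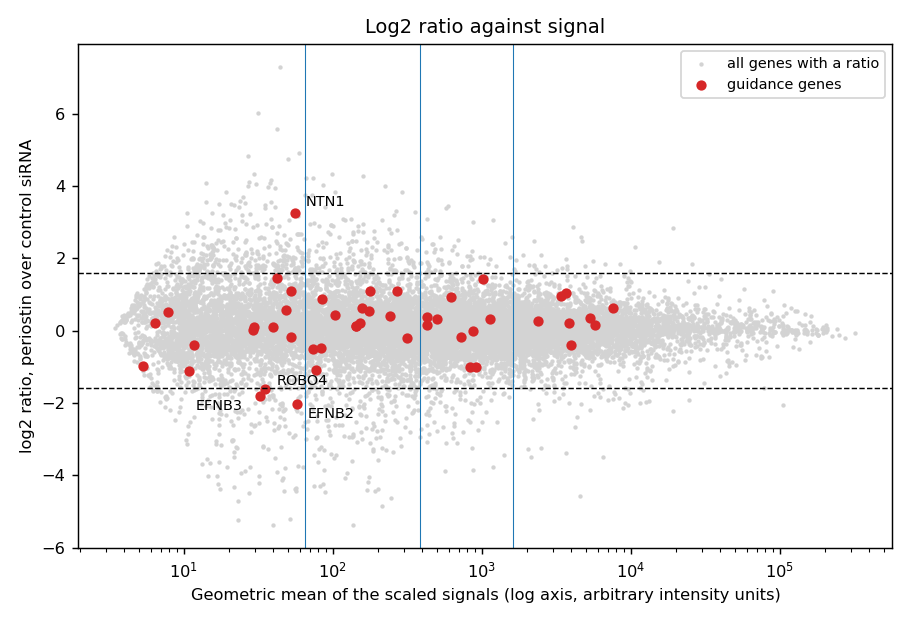
Log2 ratio, periostin siRNA over control siRNA, against the geometric mean of both signals (log axis), with 1 point per gene; grey points are all 16052 genes with a ratio and red points the 48 guidance genes. Dashed lines mark 3-fold and vertical lines the limits between the bins of 4013 genes, and the 4 named genes past 3-fold all lie left of the first vertical line.

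Promoter sequences are shown for the guidance genes past 3-fold that matched the RefSeq table of GRCh38.p14, EFNB2 and ROBO4, and for the netrin receptor gene UNC5C, described with the netrins. Each runs 5′ to 3′ on the strand of the gene, from 250 bases before its start to 50 bases after it, and capitals mark GC boxes, the letters GGGCGG searched on both strands. NTN1 and EFNB3 did not match. EFNB2 lies at chr13:106535613-106535912, ROBO4 at chr11:124897816-124898115 and UNC5C at chr4:95548924-95549223, all on the minus strand.
EFNB2: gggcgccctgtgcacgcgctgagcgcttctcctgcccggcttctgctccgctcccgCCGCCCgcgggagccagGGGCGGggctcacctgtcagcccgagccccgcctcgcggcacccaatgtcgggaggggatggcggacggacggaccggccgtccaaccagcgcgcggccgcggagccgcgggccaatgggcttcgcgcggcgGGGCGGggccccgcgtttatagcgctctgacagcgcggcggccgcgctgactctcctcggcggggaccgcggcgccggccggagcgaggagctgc
ROBO4: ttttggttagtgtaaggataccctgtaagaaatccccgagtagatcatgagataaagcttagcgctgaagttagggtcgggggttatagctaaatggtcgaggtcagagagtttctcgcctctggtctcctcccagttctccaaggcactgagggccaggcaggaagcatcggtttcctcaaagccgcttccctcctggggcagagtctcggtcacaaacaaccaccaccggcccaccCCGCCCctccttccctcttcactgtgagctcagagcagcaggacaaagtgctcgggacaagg
UNC5C: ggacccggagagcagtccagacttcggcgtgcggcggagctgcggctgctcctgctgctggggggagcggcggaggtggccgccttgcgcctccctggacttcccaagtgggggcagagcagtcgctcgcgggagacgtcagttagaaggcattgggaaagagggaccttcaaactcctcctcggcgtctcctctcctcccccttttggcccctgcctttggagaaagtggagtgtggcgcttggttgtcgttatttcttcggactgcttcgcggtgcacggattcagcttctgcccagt

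The EFNB2 promoter held 3 GC boxes and the ROBO4 promoter 1, and UNC5C held 0. A GC box was present in 45.0% of 35116 promoters of the same length, and some genes, such as CRMP1, had several promoters. The 55 promoters of guidance genes that matched were 1 a gene, and 43 of them held a GC box. The sets differ in make-up and in base composition, and a difference between their shares was not tested. The base composition differed between the windows, with 78.7% G and C for EFNB2, 55.3% for ROBO4 and 63.7% for UNC5C, against a median of 58.7% over all promoters and 65.7% over the 55. The letters CCAAT, also searched on both strands, occurred at 2 places in the EFNB2 window, 0 in that of ROBO4 and 1 in that of UNC5C, and were present in 34.6% of all promoters. The letters TATAAA occurred at 1 place in the EFNB2 window and were present in 4049 of the 35116 promoters. Of the 5 other motifs searched on both strands, CANNTG (68.7% of all promoters) occurred at 1 place in the EFNB2 window and 1 in that of UNC5C, and TTTGAA (15.2%) at 1 place in that of UNC5C. CACGTG, a special case of CANNTG (7.26%), TGANTCA (7.71%) and GTGGGAA (6.25%) were in none of the 3 windows. The matches describe the letters of the windows, and factor binding was not measured.

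The 3 B ephrins did not all differ in the same direction. EFNB2, a transmembrane ligand best known as a marker of arterial endothelium, went from 115 with control siRNA to 28.5 with periostin siRNA (log2 ratio -2.01 ± 0.23), 4.04-fold lower. EFNB3, a related ligand studied mainly in the nervous system, went from 60.9 to 17.5, a log2 ratio of -1.80 ± 0.25 and 3.48-fold lower. EFNB1, mutated in craniofrontonasal syndrome, went the other way, from 2465 to 4775 (0.95 ± 0.20), 1.94-fold higher. Each of the 3 genes had 1 spot. EFNB1 kept close to this value under the normexp correction, at 0.92.

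The A ephrins above background, which are tethered to the membrane by a lipid, differed little. EFNA1 gave 28.6 with control siRNA and 30.6 with periostin siRNA (0.10 ± 0.24, SD over 10 spots), EFNA5 gave 38.4 and 41.6 (0.12 ± 0.23), and EFNA4 gave 450 and 561 (0.32 ± 0.20). The first 2 differences were smaller than their spot error, and the signs of both changed under other scalings.

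Of the EphB receptors, which bind mainly the B ephrins, EPHB2 was lower by each of its 3 probes. The probe with the highest signal went from 1299 to 652 (-0.99 ± 0.20), and over the 3 probes the log2 ratio ran from -1.08 to -0.89. EPHB4, the main receptor of EFNB2 in vessels, gave -0.17 ± 0.20 and -0.24 by its 2 probes. EPHB3 went from 89.5 to 121 (0.43 ± 0.21). EPHB2 thus differed by more than its spot error with 3 probes on the same side, and the brighter probe of EPHB4 by less than its spot error.

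Of the EphA receptors, EPHA4, which also binds B ephrins, had 10 spots and went from 1019 to 1272 (0.32 ± 0.05). EPHA2, a receptor of A ephrins found on many epithelial and mesenchymal cells, gave 143 and 165 (0.20 ± 0.21). EPHA10, a receptor with an inactive kinase domain, had a signal of 16.8 with control siRNA and an undetected one of 6.92 with periostin siRNA, at least 2.17-fold lower, and its other 2 probes were undetected in both conditions. EPHA3, a receptor of A ephrins, had 15.3 and an undetected 1.88, at least 1.96-fold lower, and its second probe was undetected in both conditions. Both bounds start from signals close to background and shrank to log2 ratios of -0.12 and -0.14 under the normexp correction.

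NTN1 and NTN4, the netrins well above background on both arrays, had log2 ratios above 0, as did 54.5% of all genes. NTN1, which encodes a secreted netrin, gave 18.0 with control siRNA and 172 after periostin knockdown (3.26 ± 0.24), 9.56-fold higher, from 1 spot. NTN4, a netrin of basement membranes that binds laminin, went from 452 to 861 (0.93 ± 0.20), 1.91-fold higher. NTN3, detected with periostin siRNA alone, was at least 1.44-fold higher, from an undetected 5.76 to 10.9, a bound that could only lie above 0. NTN1 was above 0 under each of the 12 other settings in which it was computed, from 1.55 with normexp to 3.30 without scaling.

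The netrin receptors are no members by symbol, and were read from a list of 13 netrin receptors, netrin-G proteins, repulsive guidance molecules and the antagonist DRAXIN, of which 6 had a ratio, with a median of -0.33. UNC5C, a receptor for repulsion by netrin, went from 106 to an undetected 7.30 by its brighter probe, at least 13.7-fold lower. Its second probe, well above background on both arrays, went from 20.9 to 9.38, a log2 ratio of -1.16 ± 0.37, so the probes shared a direction and not a size. UNC5B, the UNC5 receptor known from endothelium, went from 412 to 218 (-0.92 ± 0.20). NEO1, which encodes neogenin, gave 124 and 135 (0.12 ± 0.21). DCC, UNC5A and UNC5D were not well above background on either array. DRAXIN, a secreted antagonist that binds netrin and DCC, was at least 4.02-fold higher, from 5.54 to 30.3. In this list 1 gene was thus lower and 1 higher past 3-fold, where 2.75% and 3.37% of all genes were, and both were bounds that fell within 3-fold under normexp, at -1.25 for UNC5C and 0.41 for DRAXIN.

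**Figure D3:**
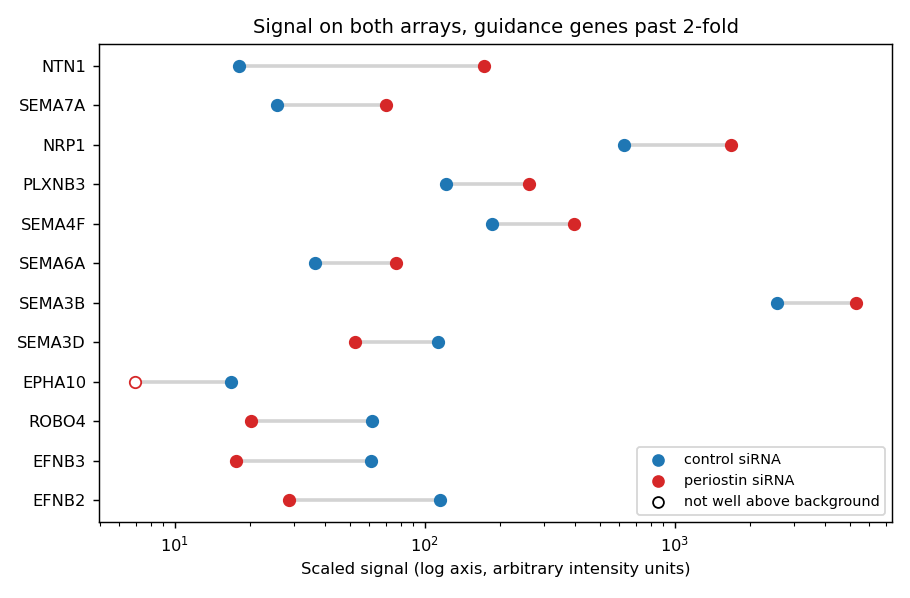
Scaled signal with control siRNA (blue) and periostin siRNA (red) for the 12 guidance genes past 2-fold, on a log axis in arbitrary intensity units, with 1 array per condition. The open circle is a signal not well above background; NTN1 spans 18.0 to 172 and SEMA3B 2561 to 5317, and the 5 genes at the bottom have the red point on the left.

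Robo receptors split as well. ROBO4, a Robo known mainly from endothelium, went from 61.6 with control siRNA to 20.2 with periostin siRNA (-1.61 ± 0.25), 3.05-fold lower. Of 6 endothelial markers, PECAM1 was not well above background on either array and the other 5 had log2 ratios from -0.35 to 0.15, with a summed signal over the 6 of 5638 with control siRNA and 5352 with periostin siRNA. That sum was nearly all TEK, with 5457 and 5175, and does not describe the other markers. ROBO1, the widely expressed receptor, went from 40.2 to 59.5 (0.57 ± 0.22). ROBO2 at 0.03 ± 0.24 by its brighter probe and ROBO3 at -0.20 ± 0.20 differed by no more than their spot error. The other ROBO2 probe went from 8.97 to an undetected 4.77, at least 1.15-fold lower, and the mean over probes was -0.44. SLIT3 was the Slit well above background, with 87.2 and 61.9 (-0.49 ± 0.21).

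The secreted class 3 semaphorins lay on both sides. SEMA3B, studied as a tumour suppressor, went from 2561 to 5317 (1.05 ± 0.20), 2.08-fold higher. SEMA3A, the classical repellent that signals through NRP1, went from 1174 to 591 (-0.99 ± 0.20), 1.99-fold lower. SEMA3D went from 113 to 52.6 (-1.10 ± 0.21), 2.14-fold lower, and this shrank to -0.59 under normexp. SEMA3C gave 209 and 279 (0.41 ± 0.20). SEMA3F, which prefers NRP2, gave 872 and 865 (-0.01 ± 0.20). Thus 2 of the 5 class 3 genes with a ratio were past 2-fold, 1 in each direction. Scaling on the median changed this to 0 higher and 2 lower, with SEMA3B at 0.93, SEMA3A at -1.12 and SEMA3D at -1.23. Under normexp SEMA3B gave 1.07 and SEMA3A -0.95.

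Of the membrane-bound semaphorins, 12 had a ratio and 10 of these were above 0, where 54.5% of all genes were. SEMA6D, 1 of the 10, was detected with periostin siRNA alone, so its bound could only lie above 0. SEMA7A, a lipid-anchored semaphorin that binds integrins and PLXNC1 and has been tied to lung fibrosis, gave 25.5 with control siRNA and 70.2 with periostin siRNA (1.46 ± 0.18, SD over 10 spots), 2.75-fold higher. SEMA4F went from 185 to 395 (1.09 ± 0.20), and its second probe gave 0.98. SEMA6A, a ligand of A plexins, went from 36.3 to 76.9 (1.08 ± 0.22). These 3 genes were the membrane semaphorins past 2-fold, and under normexp they gave 0.59, 0.85 and 0.51, all within 2-fold. Scaling on the median also brought SEMA4F to 0.96 and SEMA6A to 0.96. SEMA4D, the ligand of PLXNB1, gave 0.64 ± 0.21 by its brighter probe, from 126 to 196, and 1.36 by a dimmer one. SEMA4G gave 0.56 ± 0.21.

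SEMA4C, a ligand of PLXNB2, was the membrane semaphorin farthest below 0, with 4572 and 3495 (-0.39 ± 0.03, SD over 10 spots). That SD holds only the scatter of spots, and the scaling moved the ratio by more, to -0.52 with median scaling. SEMA5A, which carries thrombospondin repeats, gave 3555 and 4155 (0.22 ± 0.20). SEMA4A at -0.18, SEMA4B at 0.13, SEMA6B at 0.14 and SEMA6C at 0.17 were within their spot errors, and the 2 probes of SEMA6B and of SEMA6C lay on opposite sides of 0. SEMA6D was at least 1.16-fold higher, from 4.73 to 8.73.

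Both neuropilins were higher by all their probes. NRP1, co-receptor of class 3 semaphorins and of VEGF, went from 626 to 1676 by the probe annotated to NM_001024629 (1.42 ± 0.20), 2.68-fold higher. Its probe annotated to NM_003873, another transcript of the gene, went from 467 to 691 (0.56 ± 0.20), and the mean of both was 0.99, just within 2-fold. NRP2 went from 62.8 to 115 (0.88 ± 0.21) by its brightest probe, and its 3 probes ran from 0.30 to 0.88. The NRP1 probes thus shared a direction and not a size, and which forms of the protein they report was not examined. By the brighter NRP1 probe the ratio changed little with the background correction, at 1.32 under normexp.

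Of the plexins, the receptors proper of the semaphorins, 8 had a ratio and 6 of these were above 0, where 54.5% of all genes were. PLXNB3 went from 121 to 260 (1.10 ± 0.21), 2.15-fold higher. PLXNB2, which has a part in cell adhesion and migration, went from 6162 to 9540 (0.63 ± 0.20), and its second probe gave 0.60. PLXNB1 gave 376 and 484 (0.37 ± 0.20), and PLXNA1, a partner of the neuropilins, gave 4696 and 6021 (0.36 ± 0.20). PLXND1, the receptor of SEMA3E, gave 2178 and 2614 (0.26 ± 0.20), and PLXNA3 gave 5488 and 6125 (0.16 ± 0.20). PLXNA4 went from 98.5 to 70.5 (-0.48 ± 0.21) by 1 of 5 probes, the others being below background on both arrays. PLXNC1, the receptor of SEMA7A, gave 13.6 and 10.2 (-0.41 ± 0.40). PLXNB3 was the plexin past 2-fold, and the normexp correction brought it to 0.84 and scaling on the median to 0.98, both within 2-fold.

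The partner genes of these pathways were a list of 74 receptors, co-receptors and effectors, of which 60 had a ratio. Of the 60, 2 were lower and 3 higher by more than 3-fold, 8.33% against 6.12% of all genes. The median log2 ratio of the 60 was 0.05. UNC5C, DRAXIN and VEGFD, among those past 3-fold, were bounds from genes detected on 1 array. Of the 55 partner genes well above background on both arrays, 2 were past 3-fold, where 5.09% of all such genes were. Of the CRMP and MICAL proteins, which relay semaphorin signals to the cytoskeleton, CRMP1 was lower, from 148 to 39.8 (-1.89 ± 0.22), whereas DPYSL2 gave -0.05 and DPYSL3 0.94. Of the Slit and Robo effectors and co-receptors 0 of 14 were past 2-fold, with SRGAP2 at 0.69, SRGAP1 at -0.28 and the proteoglycan genes GPC1 at 0.55 and SDC1 at -0.45. Of 20 Eph and plexin effectors with a ratio, CHN1, which encodes a Rac-inactivating protein downstream of EPHA4, was the one past 2-fold, from 2339 to 945 (-1.31 ± 0.20). The GTPase genes RAC1 at 0.03, CDC42 at 0.20 and RHOA at -0.43 lay nearer 0.

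Of the VEGF family and the other partners of the neuropilins, 8 of 12 had a ratio and 2 were higher by more than 3-fold, as were 3.37% of all genes. PGF, placental growth factor, which binds NRP1, went from 64.9 to 237 (1.87 ± 0.21), 3.65-fold higher. VEGFD was at least 5.10-fold higher, from 5.40 to 38.5. VEGFA, the main ligand shared with NRP1, was on the other side of 0, from 1321 to 733 (-0.85 ± 0.20), and VEGFC gave 0.37. The 5 partner genes past 3-fold, CRMP1, UNC5C, DRAXIN, PGF and VEGFD, were all within 3-fold under normexp.

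Markers of other cell types were read beside these genes, since guidance cues are also made by epithelium, neurons and leukocytes. Of 6 epithelial markers CDH1 and NKX2-1 were not well above background on either array, and the other 4 were above 0, from 0.66 for SFTPC to 1.97 for EPCAM, with a summed signal over the 6 of 990 with control siRNA and 1815 with periostin siRNA, of which KRT8 gave 751 and 1281. Of 6 neuronal markers ELAVL4 was not well above background, and the other 5 ran from -2.51 for SYT1 to 0.35 for RBFOX3, with sums of 22283 and 14287 that were mostly TUBB3, at 21126 and 13157. Of 6 immune markers LAPTM5 and HLA-DRA were not well above background, and the 4 with a ratio ran from -0.43 to 0.94, with sums of 401 and 660 that were mostly CD14, at 287 and 549. The part of such cells in the differences above was not tested.

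**Figure D4:**
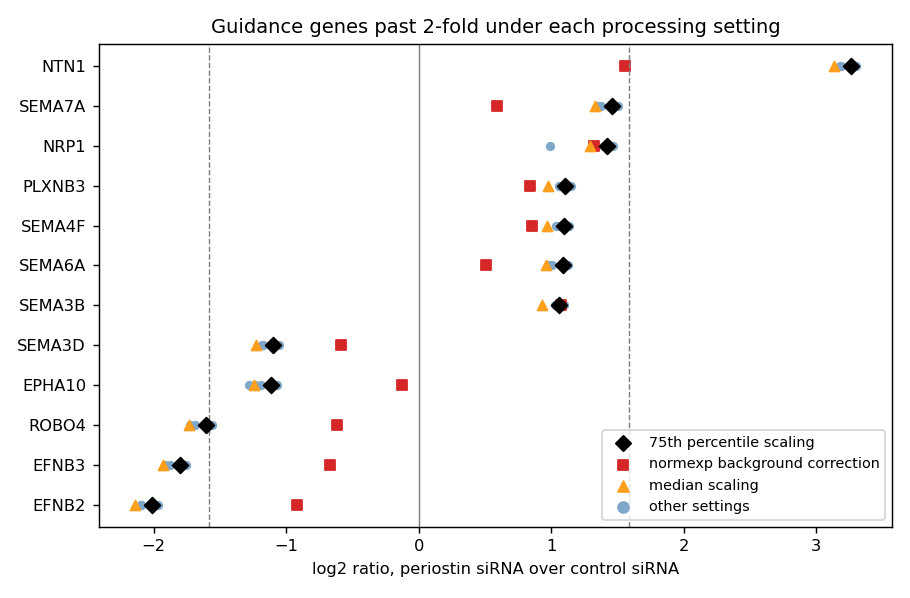
Log2 ratio, periostin siRNA over control siRNA, for the 12 guidance genes past 2-fold, under 75th percentile scaling (black), the normexp background correction (red), median scaling (orange) and the other settings (blue); dashed lines mark 3-fold. No gene crossed 0. The red points lie nearest 0 for most genes, with NTN1 at 1.55 and EFNB2 at -0.92, and those of SEMA3B and NRP1 lie at 1.07 and 1.32. Over the settings SEMA3B ran from 0.93 to 1.10 and NRP1 from 0.99 to 1.46.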

How the data were processed

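Total RNA of 1 sample per condition was labelled with Cy3 and hybridized to SurePrint G3 Human 8x60K v2 arrays. The authors deposited the scanner output, whose intensity values were background-subtracted and detrended by Feature Extraction and not scaled between arrays; the file header names version 11.5.1.1 and the submitters' processing notes 12.0.3.1. The flags in these files (scored 0 or 1, deposited with the spots) mark signals well above background, saturation and outliers. The authors also deposited a normalized intensity table of the same spots, used as an alternative. The array was annotated on hg19.

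Here, log2 of the processed signal was shifted so that both arrays shared the 75th percentile, and control spots were left out. Log2 values of the spots of a probe were averaged, and the probe with the highest mean signal stood for a gene. RefSeq accessions of GRCh38.p14 named 65.1% of the spots. Replicate spots of 667 probes printed 10 times gave a pooled SD of 0.12 for the log2 ratio, and 0.24 in the 133 dimmest of them. No spot was saturated (0 of 58717). Precision is limited by the number of arrays, 1 per condition, and no test was run. Calculations used Python 3.11.15, numpy 2.4.6, pandas 2.3.3, R 4.3.3 and limma 3.58.1. The scaling and calling steps were tested on simulated data, in which only genes with a control signal above the 75th percentile were shifted. Shifts of dim genes and bounds were not covered by it.

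The rule for genes given with both signals took the guidance genes past 2-fold, the 10 with the highest mean signal, and ligands or receptors of genes past 3-fold, with the partner genes past 3-fold and the netrin receptors. Other values were added after they were seen. The members, gene lists and motifs were chosen with earlier results of these data known. Alternatives were another background correction, 5 other scalings, the authors' table, other rules for probes, dim spots and outlier flags, and thresholds of 2-fold and 4-fold.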

Additional observations from a re-analysis of the deposited data

How the results depend on the processing

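No paired analysis was possible because the arrays are single, 1 for each siRNA, which also leaves no replicate to omit. Of the 48 guidance genes with a ratio, 41 kept their direction in each of the 12 settings in which they had a value, and the 7 others, EFNA1, EFNA5, ROBO2, SEMA3F, SEMA4A, SEMA4B and SEMA6B, had log2 ratios within 0.18 of 0. The normexp correction left 0 guidance genes lower, 0 higher and 0 partner genes past 3-fold and gave -2.99 for POSTN; its offset of 50 draws dim ratios towards 0 by construction. Among all genes past 3-fold, 42.9% were then higher ones, against 55.1%. Scaling on the median, which shifted the median of all genes by -0.13, gave median log2 ratios of 0.076 for the guidance genes and -0.083 for the partner genes, and 46.3% of all genes past 3-fold were higher ones. Without a filter on dim probes 63 guidance genes had a ratio, of which 4 were lower and 2 higher by more than 3-fold. In that setting 9 partner genes and 7.19% of all genes were past 3-fold. With signals well above background on both arrays 3 of 44 guidance genes were lower and 1 higher. There, 2 partner genes and 5.09% of all genes were past 3-fold. At 2-fold 5 guidance genes were lower and 7 higher, where 14.4% of all genes were past the threshold. The balance of guidance genes became 8 and 3 with median scaling, 8 and 7 with loess and 0 and 3 with normexp. At 4-fold 1 guidance gene was lower and 1 higher, and 3 partner genes and 3.44% of all genes were past the threshold. Signal over background limits the genes with low signals, among them all 4 past 3-fold.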
